A study of Mus musculus with 12 samples.

Results

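Fibroblasts driven towards pluripotency by Oct4 with Sox2, Klf4 and Myc (together OSKM) switch on the genes of the pluripotent state at different times. The 77 genes described here were still low in wild-type (WT) mouse cells after 11 days of the factors. They were picked from the signals themselves on the log2 scale, from 19938 genes with a probe set of their own. On the first criterion, the lowest of the 4 pluripotent arrays had to exceed the highest of the 3 arrays of mouse embryonic fibroblasts (MEF) by at least 1.5, which held for 434 genes, called the raised genes below. On the second, the lowest pluripotent array had to exceed the WT day 11 array by at least 1, which left 77 late genes and 357 other raised genes. Since these values chose the late genes, the MEF, WT day 11 and pluripotent signals of the genes are a description and carry no test.

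Reprogramming is carried out by transgenes at first and later by the cell's own pluripotency network, in which Oct4, Sox2 and Nanog bind and maintain each other's genes. The promoters of many germline genes are methylated in fibroblasts, and markers of naive pluripotency such as Zfp42 are known to come on late in this course. Mbd3 is a subunit of the nucleosome remodelling and deacetylase complex NuRD, which removes acetyl groups from histones, and the series asked how lowering Mbd3 bears on reprogramming.

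RNA was profiled on 12 Affymetrix arrays, 1 for each genotype and stage. The 3 MEF arrays came from Mbd3+/+ (WT), Mbd3flox/- (flox/-) and Mbd3-/- (-/-) cells before doxycycline (DOX). The 5 DOX arrays came from MEF in which DOX had switched on OSKM, for 4, 8 or 11 days in WT cells and for 4 or 8 days in flox/- cells. The 4 pluripotent arrays were WT and flox/- induced pluripotent stem cells (iPSC) and -/- and WT embryonic stem cells (ESC), the last of the line V6.5. WT and flox/- MEF, DOX cells and iPSC carried the DOX-inducible OSKM transgene. The labels of -/- MEF and of both ESC arrays name no transgene. The culture medium for ESC held LIF, serum replacement and inhibitors, and the feeder layer was of irradiated DR4 MEF, so RNA of feeder fibroblasts can be present in each sample. Both the WT ESC array and the WT day 8 array first appeared in an earlier series, and one label field of the WT day 8 array says 4 days where its title says 8. No label says that arrays came from separate cultures or that a line was more than a single clone, so a p-value measures only the spread between these arrays, which may be technical.

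Mbd3 itself had a log2 signal of 6.75 in -/- ESC and 8.11 in -/- MEF, the lowest of the 12 arrays, and of 8.73 to 9.13 in the flox/- arrays against 9.02 to 9.64 in the WT arrays. The flox/- day 8 array was most like flox/- iPSC over all genes (Pearson r = 0.99 across genes), and the WT day 11 array was most like WT iPSC (r = 0.974). Of 9 markers of pluripotent cells, 8 lay less than 1 log2 unit under the lowest pluripotent array in WT day 11, Nanog at 12.33, Sox2 at 11.90 and Pou5f1 (Oct4) at 11.95 among them, and the exception was Zfp42, a late gene. All 9 did so in flox/- day 8. Pou5f1 and Sox2 are also factors of the transgene. In WT cells Pou5f1 was already at 11.93 on day 4 and 12.61 on day 8, where the marker medians were 5.89 and 5.56. The part of transgene RNA in these signals was not tested, so the Pou5f1 and Sox2 values under DOX cannot be assigned to the cell's own genes. The median of 12 fibroblast markers was 11.67 to 12.13 in the MEF arrays, 10.13 for WT day 11, 6.10 for flox/- day 8 and 6.61 to 9.40 for the pluripotent arrays. All 12 were at least 2-fold higher in WT day 11 than in flox/- day 8. The part that fibroblast RNA takes in the difference between these arrays was not tested, and in such bulk RNA fewer cells of a type and less RNA per cell cannot be told apart. The WT day 8 array stood apart: the median of 5 keratinocyte markers was 9.09 there and 5.24 to 5.77 on the other 11 arrays. Krt14 (12.16), Krt6a (9.09) and Sfn (11.94) were high in it, while Krt5 (5.34) and Trp63 (5.53) were not. Its pluripotent marker median was 5.56, beside 5.89 in WT day 4.

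In flox/- day 8 cells the late genes stood at the level of pluripotent cells. All 77 lay less than 1 log2 unit below the lowest pluripotent array, the distance that no late gene kept in WT day 11. The background is high: 99.8% of the 434 raised genes met this in flox/- day 8. The share was 82.3% for WT day 11, 53.5% for flox/- day 4, 27.4% for WT day 8 and 24% for WT day 4. The count among late genes was 6 for flox/- day 4, 8 for WT day 8 and 0 for WT day 4. In flox/- day 8, 38 of the late genes lay inside the range of the 4 pluripotent arrays, 12 lay above the highest of them and 27 below the lowest. The median level of the 77 genes was 9.14 in flox/- day 8 and 8.97 to 9.37 on the pluripotent arrays. WT day 11 had 6.66, and on the MEF arrays it was 5.40 to 5.61.

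**Figure D1:**
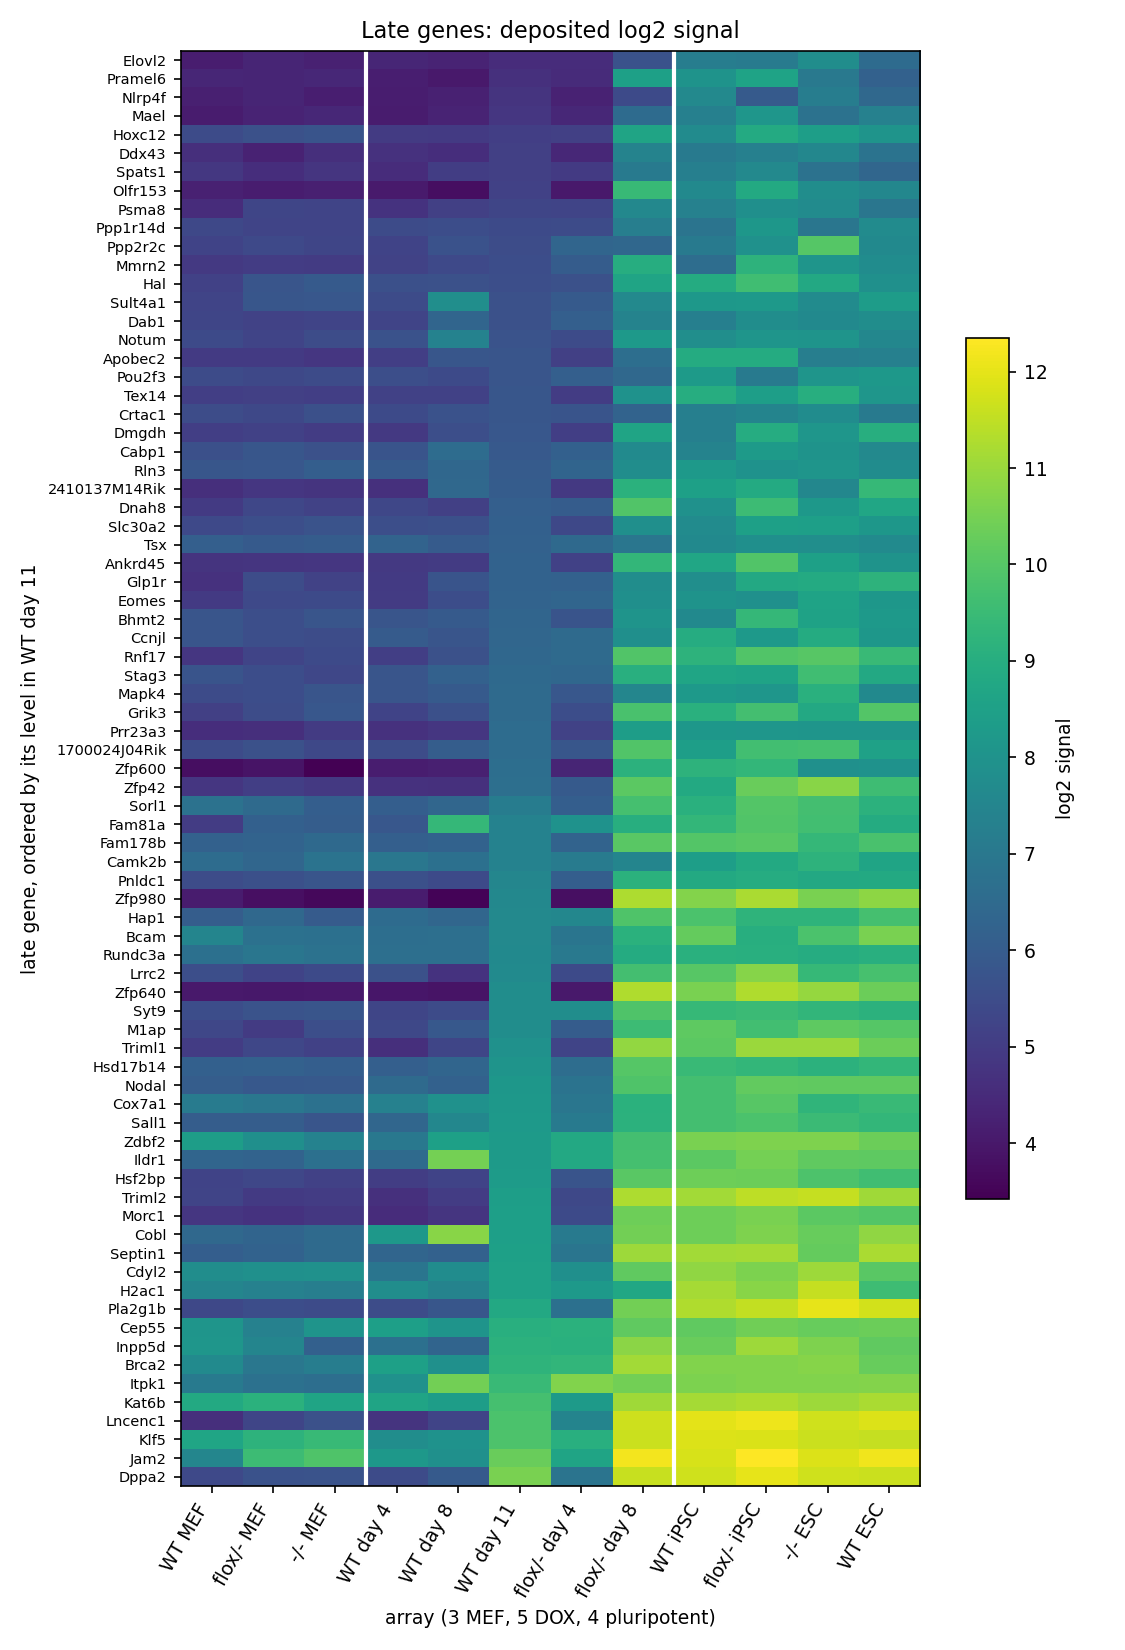
Deposited log2 signal (colour) of the 77 late genes (rows, ordered by their level in WT day 11) on the 12 arrays (columns, with white lines between MEF, DOX and pluripotent arrays). The flox/- day 8 column resembles the pluripotent columns, while most genes are dark in WT day 11 and darker still at day 4, and a few (Ildr1, Cobl, Itpk1, Fam81a) are bright in WT day 8.

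The single array closest to flox/- day 8 was not the same for all late genes. Flox/- iPSC was closest for 22 of them, WT iPSC for 20, -/- ESC for 18 and WT ESC for 17. The median difference of flox/- day 8 from these arrays was -0.26, -0.01, -0.12 and -0.05 log2 units in that order. The median absolute difference was 0.38, 0.49, 0.54 and 0.45, smallest for flox/- iPSC. In a setting added after the data were seen, both flox/- arrays (MEF and iPSC) were left out of the rule, and 82 genes were chosen. All 77 late genes were among the 82, since leaving out arrays can only add genes, so this is not an independent set. Of the 82, 78 lay within 1 log2 unit of the lowest remaining pluripotent array in flox/- day 8.

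All 77 late genes were higher in flox/- day 8 than in WT day 11, by a median of 1.80 log2 units (3.49-fold), from 0.10 for Camk2b to 4.27 for Olfr153. The difference was at least 2-fold for 65 of them and at least 4-fold for 29, and none was 2-fold lower. Over the 13044 genes kept for testing 4.37% were at least 2-fold higher in flox/- day 8 and 9.84% lower, and over the 434 raised genes 30.2% were. The other 357 raised genes differed by a median of 0.43 log2 units, and 66 of them were at least 2-fold higher. A rule that picks genes low in WT day 11 sets the direction of this comparison, so the mirror rule was applied too. Only 1 raised gene lay at least 1 log2 unit below the lowest pluripotent array in flox/- day 8: Plet1, a trophoblast and epithelial surface protein, at 7.09 there, 10.60 in WT day 11 and 8.76 in the lowest pluripotent array. The mirror set was thus 1 of 434 raised genes. It could share no gene with the late set, since all 77 late genes lay less than 1 log2 unit below that array in flox/- day 8.

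Of the MEF and pluripotent arrays left out in turn, WT ESC changed the number of late genes and the size of the mirror set most. It was the lowest pluripotent array for 29 of the 77 late genes, WT iPSC for 24, -/- ESC for 18 and flox/- iPSC for 6. Without WT ESC the rule chose 119 genes, with all 77 among them, since leaving out an array can only add genes. Of the 119, 108 lay within 1 log2 unit in flox/- day 8 and 96 were at least 2-fold higher there than in WT day 11. The mirror set then held 13 genes. The mirror set held 6 genes without WT iPSC, 6 without flox/- iPSC, 3 without -/- ESC and 7 with both flox/- arrays left out of the rule.

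**Figure D2:**
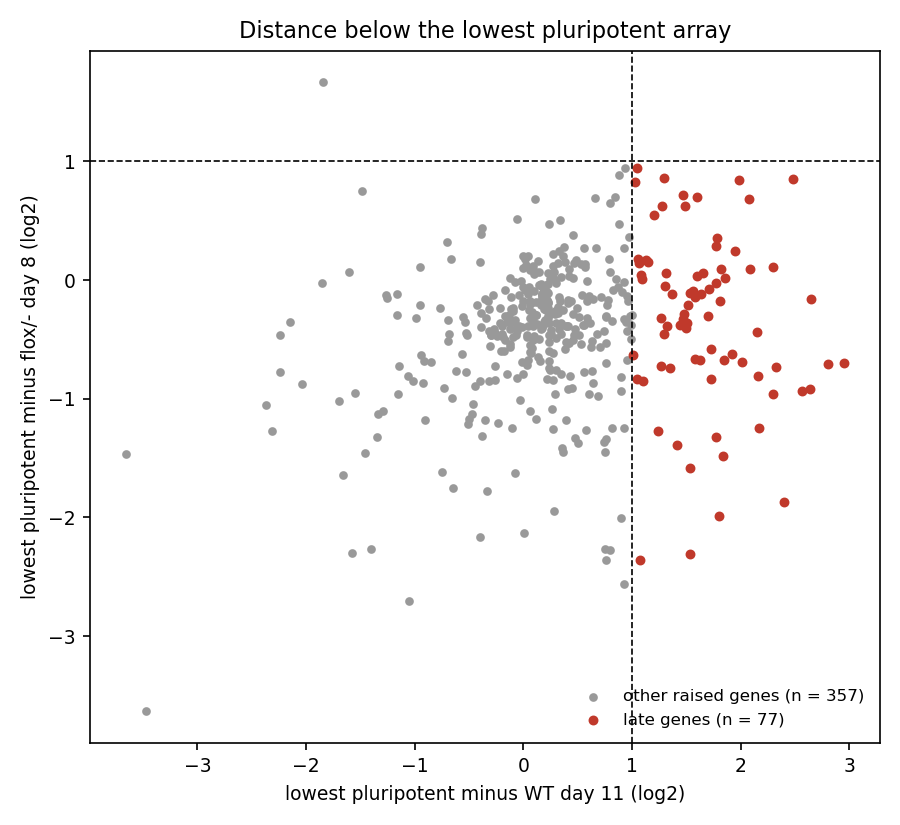
Distance below the lowest pluripotent array in WT day 11 (horizontal axis, log2) and in flox/- day 8 (vertical axis, log2) for the 77 late genes (red) and the 357 other raised genes (grey), with dashed lines at 1. All red points lie right of the vertical line by the rule and below the horizontal line, and 1 grey point (Plet1) lies above the horizontal line.

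To set genes of different range beside each other, each array was given a position per gene, 0 at the mean of the 3 MEF arrays and 1 at the mean of the 4 pluripotent arrays on the log2 scale. The median position of the late genes was -0.0046, 0.047 and 0.31 on the WT arrays of days 4, 8 and 11, and 0.13 and 0.96 on the flox/- arrays of days 4 and 8. That of the other raised genes was 0.33, 0.19, 0.84, 0.66 and 1.02 in the same order. The late genes thus sat lower than the other raised genes on each of the 5 DOX arrays, in WT day 11 by the rule, and the medians were closest in flox/- day 8. The pluripotent arrays had median positions of 0.95 to 1.05 for the late genes (SD 0.045, n = 4), so the flox/- day 8 array lay within their spread. On the linear scale the median late gene stood in WT day 11 at 9.93% of the way from MEF to pluripotent signal and the median other raised gene at 66.6%. In flox/- day 8 these values were 88.5% and 102%.

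**Figure D3:**
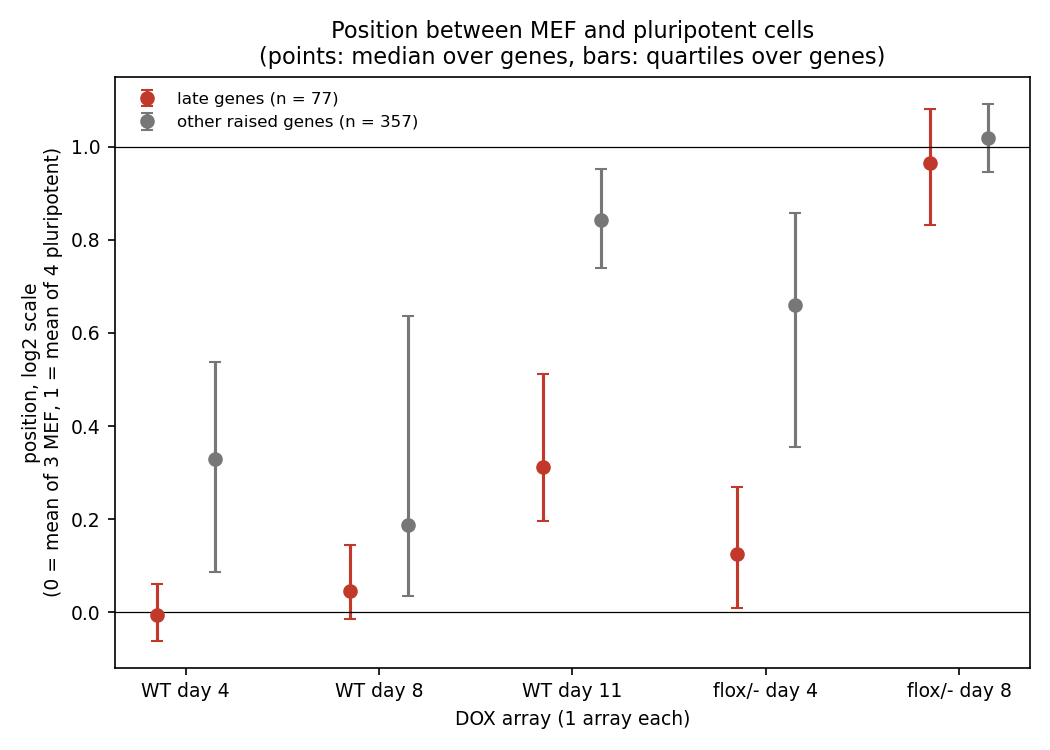
Median position between MEF (0) and pluripotent cells (1) on the log2 scale for the 77 late genes (red) and the 357 other raised genes (grey) on each of the 5 DOX arrays, with bars for the quartiles over genes. The late genes move from 0.13 in flox/- day 4 to 0.96 in flox/- day 8, and stand at 0.31 in WT day 11.

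Within the late set, some genes were above MEF in WT day 11 and others were not. Of the 77, 31 were at least 1 log2 unit above the highest MEF array in WT day 11, against 8.07% of all tested genes, and 46 were not. All 46 of the latter were within 1 log2 unit of the lowest pluripotent array in flox/- day 8, and 42 of them were at least 1 log2 unit above the highest MEF array there. Flox/- day 8 passed that mark for 73 of the 77 (background 12.7%) and flox/- day 4 for 12 (9.36%). WT day 8 did so for 9 (8.88%) and WT day 4 for 1 (2.76%). The 4 below it in flox/- day 8 were Tsx, Pou2f3, Crtac1 and Camk2b. The other raised genes met the same MEF criterion and passed this mark more often than the late genes on each DOX array. Their shares by day were 32.8%, 37.3% and 94.7% for WT, then 71.4% and 99.2% for flox/-. For the late genes the shares were 1.3%, 11.7%, 40.3%, 15.6% and 94.8% in that order, the third being bounded by the rule. The floor of the array limits some of these values: 9 late genes were below the lower quartile of all probe sets (4.64 to 4.73) on all 3 MEF arrays, and 30 were below the array median in WT day 11. Folds that start from such levels are bounded by background.

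Flox/- day 8 had the highest signal of the 5 DOX arrays for 72 of the late genes. The other 5 were Sult4a1, Cobl, Fam81a and Ildr1, highest in WT day 8, and Itpk1, highest in flox/- day 4. Flox/- day 4 exceeded WT day 11 for 21 of the 77, and WT day 8 did for 15. WT day 4 had the lowest DOX signal for 44 genes and WT day 8 for 22.

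Tests were limited to differences between DOX arrays that the rule did not use. The limma fit took its spread from the 3 MEF and 4 pluripotent arrays (5 residual degrees of freedom), which are the arrays of the rule, and assumed that a lone DOX array varies as they do. Calls needed an adjusted p below 0.05 over all 13044 genes, and all 77 late genes were among those tested. From day 4 to day 8 in flox/- cells 51 late genes rose and 0 fell, against 3.56% and 4.75% of all tested genes. Their median change was 2.65 log2 units, against 1.03 for the other raised genes, of which 31.7% rose. Over all tested genes the median change was -0.08.

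Against WT cells at the same day, 57 late genes were called higher in flox/- day 8 and 0 lower (12.1% and 15.4% of all tested genes). The median difference was 2.85 log2 units, and 70.3% of the other raised genes were called higher as well, so the share of late genes was close to theirs. Over all tested genes the median difference was -0.018. Ildr1 was among the late genes with a lower signal in flox/- day 8 than in WT day 8. The WT day 8 array comes from an earlier series and had the keratinocyte signals above, so its series and its state cannot be told apart from genotype here. In all, 47 late genes were called in both comparisons and 16 in neither.

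At day 4 few late genes differed by genotype. Flox/- exceeded WT for 5 (background 1.11%) and 0 were lower (0.613%), with a median difference of 0.44 log2 units. Of the other raised genes 11.2% were called higher, with a median difference of 0.69. Over all tested genes the median difference was 0.077. Cobl was among the late genes with a lower signal in flox/-, with a difference of -1.10. The 5 called higher were Itpk1, Lncenc1, Syt9, Ildr1 and Dppa2. The count was 3 when flox/- MEF or any single pluripotent array was left out (0.644% to 1.21% of all tested genes). It was 2 (0.383%) with genotype as a term in the fit, a setting added after the data were seen. From day 4 to day 8 in WT cells 8 late genes rose (7.08%) and 0 fell (4.02%): Ildr1, Fam81a, Cobl, Itpk1, Sult4a1, Notum, Sall1 and Dab1. Of the other raised genes 16.0% rose over this step and 13.4% fell. The median change was 0.18 log2 units for the late genes, -0.0033 for the other raised genes and 7.35e-04 for all tested genes. The change from day 4 to day 8 was itself larger in flox/- than in WT cells for 34 late genes (4.22%) and smaller for 2, Ildr1 and Itpk1 (7.83%), and larger for 32.8% of the other raised genes.

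**Figure D4:**
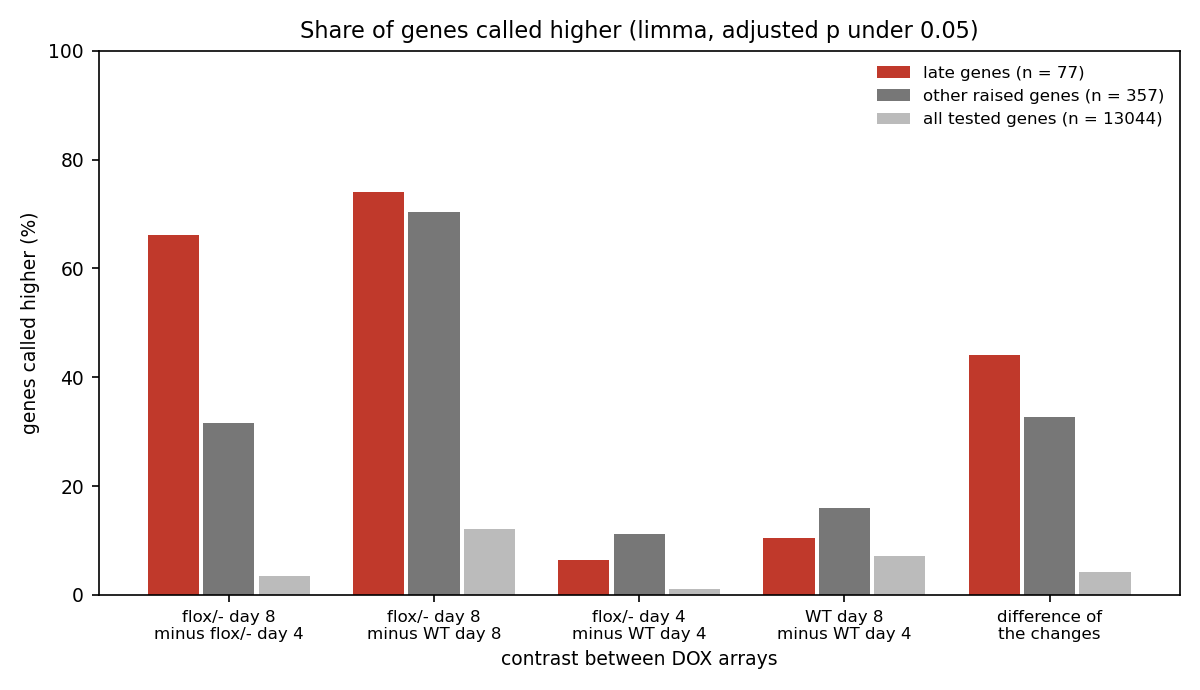
Share of genes (%) called higher by limma at an adjusted p under 0.05 in each contrast between DOX arrays, for the 77 late genes (red), the 357 other raised genes (dark grey) and all 13044 tested genes (light grey). From flox/- day 4 to day 8 the share is 66.2% of the late and 31.7% of the other raised genes, and against WT day 8 it is 74.0% and 70.3%.

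The late genes were sorted by known role after their values had been seen, so that each is described once. Genes sorted with the pluripotency network and the earliest embryo made up 13: Zfp42, Dppa2, Klf5, Sall1, Jam2, Lncenc1, Triml1, Triml2, Pramel6, Nodal, Eomes, Nlrp4f and Pou2f3. The first 6 are on the pluripotency network list used below. Pou2f3 is not on it and is known from skin and tuft cells, so its place in this group is loose. The median position of the 13 was 0.43 in WT day 11 and 0.96 in flox/- day 8, and 9 of the 13 rose from flox/- day 4 to day 8. Over this step 66.2% of all late genes rose, beside 31.7% of the other raised genes and 3.56% of all tested genes.

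Zfp42 (Rex1), a zinc finger protein and standard marker of naive pluripotency, had log2 signals of 4.82, 5.08 and 4.92 in WT, flox/- and -/- MEF, 4.69, 4.68 and 6.68 in WT at days 4, 8 and 11, 5.95 and 10.09 in flox/- at days 4 and 8, and 8.85, 10.30, 10.77 and 9.59 in WT iPSC, flox/- iPSC, -/- ESC and WT ESC. WT cells at day 11 were thus above every MEF array and below every pluripotent array, and flox/- cells at day 8 lay among the pluripotent arrays. Zfp42 was 10.7-fold higher in flox/- day 8 than in WT day 11. It rose from flox/- day 4 to day 8 by 4.14 ± 0.78 (log2, SE; adjusted p = 0.0237).

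Zfp42 lies on chromosome 8 next to Triml2 and Triml1, which encode tripartite-motif-like proteins of the early embryo. Triml1 (chr8:43129806-43180494) and Triml2 (chr8:43180463-43193884) overlap by 32 bases, and Zfp42 (chr8:43295067-43307009) follows after 101 kb (GRCm38.p6). Triml2 had log2 signals of 5.27, 4.94 and 5.02 in WT, flox/- and -/- MEF, 4.67, 5.02 and 8.44 in WT at days 4, 8 and 11, 5.37 and 11.25 in flox/- at days 4 and 8, and 11.13, 11.46, 11.55 and 11.09 in WT iPSC, flox/- iPSC, -/- ESC and WT ESC. It was near MEF level at day 4 in both genotypes and in WT day 8, above it in WT day 11, and inside the pluripotent range in flox/- day 8. Triml2 rose from flox/- day 4 to day 8 by 5.88 ± 0.30 (log2, SE; adjusted p = 1.76e-04) and Triml1 by 5.66 ± 0.47 (log2, SE; adjusted p = 0.0014). The promoter of Zfp42, 250 bases before to 50 bases after its start (chr8:43306960-43307259, minus strand, RefSeq, GRCm38.p6), is shown because it is 1 of the 2 late promoters with the octamer ATTTGCAT, to which Oct4 and its relatives bind, here in capitals.

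Zfp42: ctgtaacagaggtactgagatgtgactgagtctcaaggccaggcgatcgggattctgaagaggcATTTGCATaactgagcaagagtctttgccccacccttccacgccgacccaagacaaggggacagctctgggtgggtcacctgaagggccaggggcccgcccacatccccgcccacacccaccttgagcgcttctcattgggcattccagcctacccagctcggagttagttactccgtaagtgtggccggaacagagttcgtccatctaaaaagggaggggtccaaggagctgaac

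The other late promoter with the octamer was that of H2ac1, so 3.45% of the 58 late genes with a RefSeq promoter held it on either strand, against 2.63% of the other raised genes and 1.71% of all 15563 matched genes.

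Dppa2, a DNA-binding protein of pluripotent cells, was among the late genes already far above MEF in WT day 11. Its log2 signals were 5.40, 5.66 and 5.71 in WT, flox/- and -/- MEF, 5.46, 5.96 and 10.55 in WT at days 4, 8 and 11, 6.87 and 11.59 in flox/- at days 4 and 8, and 11.71, 12.02, 11.71 and 11.63 in WT iPSC, flox/- iPSC, -/- ESC and WT ESC. WT day 11 was 1.09 below the lowest pluripotent array. Dppa2 rose from flox/- day 4 to day 8 by 4.72 ± 0.26 (log2, SE; adjusted p = 2.47e-04), and it was already higher in flox/- than in WT cells at day 4, by 1.41 ± 0.26 (log2, SE; adjusted p = 0.0451). Morc1, which silences transposons in male germ cells, starts 112 kb downstream of Dppa2 on chromosome 16 (chr16:48310274-48319513 and chr16:48431237-48630905). It had log2 signals of 4.84, 4.73 and 4.86 in WT, flox/- and -/- MEF, 4.57, 4.81 and 8.47 in WT at days 4, 8 and 11, 5.43 and 10.37 in flox/- at days 4 and 8, and 10.39, 10.55, 10.11 and 9.97 in WT iPSC, flox/- iPSC, -/- ESC and WT ESC, and it rose from flox/- day 4 to day 8 by 4.94 ± 0.29 (log2, SE; adjusted p = 3.19e-04). Dppa4, the partner of Dppa2 on its other side, was a raised gene but not late, at 8.46 in WT day 11 and 9.92 in flox/- day 8.

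Lncenc1, a long non-coding RNA of ESC, was at 4.77, 5.26 and 9.83 in WT days 4, 8 and 11 and at 7.46 and 11.68 in flox/- days 4 and 8. It was 6.45-fold higher in flox/- than in WT cells at day 4 (limma adjusted p = 0.0358) and 18.6-fold higher in flox/- at day 8 than at day 4 (adjusted p = 0.00317). Klf5, a Krüppel-like factor of self-renewal, was expressed in all 3 MEF arrays (mean 9.10 ± 0.40, SD, n = 3) and lower than there on both early WT arrays (7.81 and 7.97). It reached 9.85 in WT day 11 and 11.63 in flox/- day 8, beside 11.72 ± 0.15 in pluripotent cells (SD, n = 4), and rose from flox/- day 4 to day 8 by 2.59 ± 0.36 (log2, SE; adjusted p = 0.00792). Sall1, a zinc finger repressor, was one of the few late genes that rose in WT cells before day 11, by 1.19 ± 0.28 (log2, SE; adjusted p = 0.0363) from day 4 to day 8. Jam2, a junctional adhesion molecule, ranged from 7.53 to 9.91 among the MEF arrays, and its change of 3.55 from flox/- day 4 to day 8 was not called (adjusted p = 0.0709).

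Nodal, the TGF-beta family ligand of the epiblast, was at 8.16 in WT day 11 and 9.89 in flox/- day 8, with MEF at 5.96 ± 0.10 (SD, n = 3) and pluripotent cells at 10.07 ± 0.26 (SD, n = 4). It rose from flox/- day 4 to day 8 by 3.08 ± 0.29 (log2, SE; adjusted p = 0.00208). Eomes, a T-box factor of trophoblast and mesendoderm, was at 6.25 in WT day 11 and 7.85 in flox/- day 8, and its change of 1.51 from flox/- day 4 was not called (adjusted p = 0.0558). Pramel6, a PRAME-family protein of naive cells, stayed at 4.65 in WT day 11 with the MEF arrays at 4.36 to 4.41, was at 8.49 in flox/- day 8, and varied from 6.18 to 8.61 among the pluripotent arrays. It was 14.3-fold higher in flox/- day 8 than in WT day 11. Nlrp4f, an oocyte NLR-family gene, and Pou2f3, a POU factor known from skin and tuft cells, were the least advanced of this group in flox/- day 8, at 5.42 and 6.44, which is 0.55 and 0.62 below their lowest pluripotent array, and neither change from flox/- day 4 was called (adjusted p = 0.358 and 0.775).

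**Figure D5:**
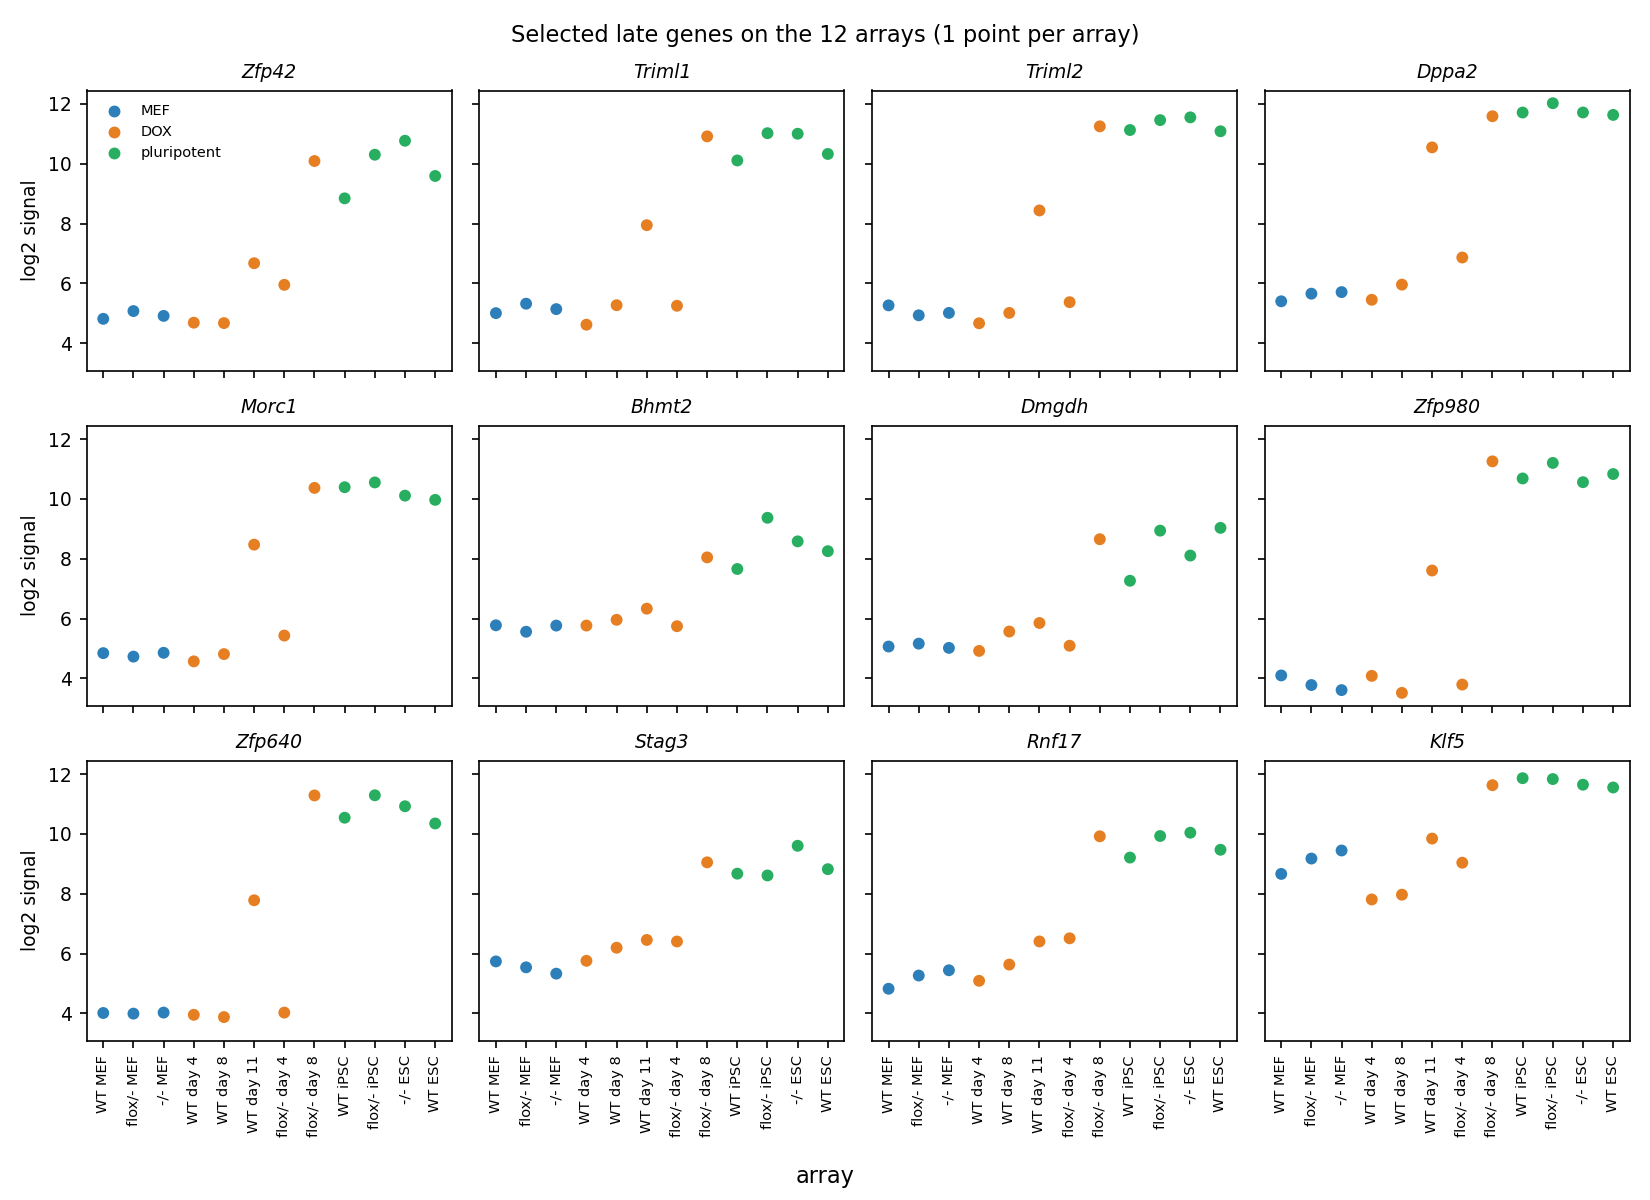
Log2 signal of 12 late genes on each of the 12 arrays, 1 point per array, with MEF in blue, DOX arrays in orange and pluripotent arrays in green. In each panel the fifth orange point, flox/- day 8, stands beside the green points, and the third, WT day 11, stands below them.

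Genes of the germ line and meiosis made up 14 of the late genes: Morc1, Stag3, Mael, Rnf17, Pnldc1, Hsf2bp, Tex14, M1ap, Psma8, Ddx43, Spats1, Dnah8, Tsx and H2ac1. Their median position was 0.27 in WT day 11 and 1.03 in flox/- day 8. Of the 14, a group made after their values had been seen, 11 rose from flox/- day 4 to day 8 and 13 were called higher than in WT day 8. The shares were 66.2% and 74.0% of all late genes, 31.7% and 70.3% of the other raised genes, and 3.56% and 12.1% of all tested genes. In a list of germline and meiosis genes written for this work with earlier results in view, 67 genes were measured, 8 were raised and 6 of these were late (75%, against 17.7% of all raised genes): Mael, Tex14, Stag3, Rnf17, Pnldc1 and Hsf2bp. The other 2 were Kit and Tdrd12. Since the rule's own values decide which genes are late and only 8 were raised, this share is a description and carries no test. Of the 47 genes of this list that were tested, 6 rose from flox/- day 4 to day 8 and 2 fell, and 16 were called higher and 2 lower than in WT day 8.

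Several of them act in the piRNA pathway, which silences transposons in germ cells. Rnf17, a Tudor-domain protein, had log2 signals of 4.83, 5.27 and 5.44 in WT, flox/- and -/- MEF, 5.09, 5.63 and 6.41 in WT at days 4, 8 and 11, 6.51 and 9.92 in flox/- at days 4 and 8, and 9.21, 9.93, 10.04 and 9.47 in WT iPSC, flox/- iPSC, -/- ESC and WT ESC. It was 11.4-fold higher in flox/- day 8 than in WT day 11, and its rise from flox/- day 4 was 3.41 ± 0.45 (log2, SE; adjusted p = 0.00663). Pnldc1, which trims piRNA ends, rose by 3.04 ± 0.21 (log2, SE; adjusted p = 6.32e-04) from a day 4 level of 6.09 and had reached 7.54 in WT day 11. Mael, which is needed for piRNA-guided silencing, was at 4.84 in WT day 11 and 6.54 in flox/- day 8, 0.25 below the lowest pluripotent array. Its change from flox/- day 4, 2.12, was not called (adjusted p = 0.0546), while its difference from WT day 8, 2.23, was (adjusted p = 0.0204). Ddx43, a germ cell RNA helicase, went from 4.43 to 7.41 in flox/- cells, a rise of 2.98 ± 0.36 (log2, SE; adjusted p = 0.00469).

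Others act in meiosis and sperm formation. Stag3, the cohesin subunit of meiotic chromosomes, had log2 signals of 5.74, 5.54 and 5.33 in WT, flox/- and -/- MEF, 5.76, 6.20 and 6.46 in WT at days 4, 8 and 11, 6.41 and 9.05 in flox/- at days 4 and 8, and 8.67, 8.61, 9.60 and 8.82 in WT iPSC, flox/- iPSC, -/- ESC and WT ESC. Flox/- day 8 was inside the pluripotent range, and all other DOX arrays were at least 2 log2 units below it. Stag3 rose from flox/- day 4 to day 8 by 2.65 ± 0.47 (log2, SE; adjusted p = 0.0191). Hsf2bp, a protein of meiotic prophase, rose by 4.32 ± 0.38 (log2, SE; adjusted p = 0.00155), having reached 8.32 in WT day 11. Tex14, a protein of the bridges between germ cells, rose by 2.98 ± 0.43 (log2, SE; adjusted p = 0.00887), and M1ap, a meiosis protein, by 3.53 ± 0.34 (log2, SE; adjusted p = 0.00221). Dnah8, a sperm dynein heavy chain, was 13.8-fold higher in flox/- day 8 (9.91) than in WT day 11 (6.12), and flox/- day 8 was above all 4 pluripotent arrays. Psma8, the testis proteasome subunit, was at 5.29 in WT day 11, no higher than in MEF, and at 7.59 in flox/- day 8. Spats1, named for the spermatocytes it was found in, was at 5.10 and 7.10.

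Exceptions in this group were H2ac1 and Tsx. H2ac1, a histone H2A gene of the testis and oocyte, was at 8.54 in WT day 11 and 8.75 in flox/- day 8, with pluripotent cells at 9.57 to 11.58. Tsx, beside Xist on the X chromosome and the only late gene there, was at 6.18, 6.93 and 7.65 to 7.88. Neither change from flox/- day 4 to day 8 was called (adjusted p = 0.779 and 0.207). The promoters of Stag3 (chr5:138280259-138280558, plus strand) and Mael (chr1:166238695-166238994, minus strand) are shown because they held the E-box CACGTG, which MAX and MYC-family proteins bind. The other matched promoters of this group did not hold it. The capitals mark CACGTG in both and, in Stag3, also the E2F-like word TTCCCGC.

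Stag3: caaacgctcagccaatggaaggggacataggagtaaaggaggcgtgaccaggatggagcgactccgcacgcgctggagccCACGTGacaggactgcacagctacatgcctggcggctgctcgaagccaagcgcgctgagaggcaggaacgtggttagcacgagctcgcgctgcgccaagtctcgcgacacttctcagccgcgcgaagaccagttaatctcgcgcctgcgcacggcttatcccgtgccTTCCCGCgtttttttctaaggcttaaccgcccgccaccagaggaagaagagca

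Mael: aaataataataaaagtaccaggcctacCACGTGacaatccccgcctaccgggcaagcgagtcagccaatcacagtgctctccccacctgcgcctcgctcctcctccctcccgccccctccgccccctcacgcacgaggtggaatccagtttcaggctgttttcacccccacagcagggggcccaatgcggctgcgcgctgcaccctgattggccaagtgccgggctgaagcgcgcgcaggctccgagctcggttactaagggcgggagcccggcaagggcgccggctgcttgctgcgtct

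Promoters were matched for 58 of the 77 late genes. CACGTG, searched on both strands, was in 4 (6.9%: Fam178b, Stag3, Sorl1 and Mael), in 10.5% of the other raised genes and in 8.4% of all matched genes. TTCCCGC was in 7 (12.1%: Ankrd45, Stag3, Tex14, Spats1, Brca2, Hsf2bp and Slc30a2), 16.2% and 6.48% in the same order. TCAAGGTCA, a word bound by Esrrb, was in 0 of the late promoters and in 0.302% of all. The ratio of observed to expected CpG had a median of 0.694 in the late promoters, 0.722 in those of the other raised genes and 0.626 in all matched promoters, and 62.1%, 65.8% and 52.3% were over 0.6. These shares are descriptions of short windows and mark no binding site.

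The largest changes of late genes from flox/- day 4 to day 8 were those of the zinc finger genes Zfp980 and Zfp640. Zfp980 had log2 signals of 4.10, 3.78 and 3.61 in WT, flox/- and -/- MEF, 4.08, 3.52 and 7.61 in WT at days 4, 8 and 11, 3.79 and 11.25 in flox/- at days 4 and 8, and 10.68, 11.20, 10.56 and 10.83 in WT iPSC, flox/- iPSC, -/- ESC and WT ESC. It was near the floor of the array in MEF and on 3 of the 5 DOX arrays, 12.5-fold lower in WT day 11 than in flox/- day 8, and in the latter above all pluripotent arrays. It rose from flox/- day 4 to day 8 by 7.46 ± 0.35 (log2, SE; adjusted p = 1.44e-04). Zfp640 had log2 signals of 4.02, 3.99 and 4.03 in WT, flox/- and -/- MEF, 3.95, 3.88 and 7.78 in WT at days 4, 8 and 11, 4.03 and 11.29 in flox/- at days 4 and 8, and 10.54, 11.29, 10.93 and 10.35 in WT iPSC, flox/- iPSC, -/- ESC and WT ESC, and its rise was 7.26 ± 0.41 (log2, SE; adjusted p = 2.78e-04). Zfp600 rose by 4.82 ± 0.73 (log2, SE; adjusted p = 0.0107). Zfp980 and Zfp600 lie 452 kb apart on chromosome 4 (chr4:145670697-145704437 and chr4:146156827-146198756). These genes belong to a family of closely related copies, so probe sets may read more than 1 of them and the split between members is uncertain. Of 18 raised genes with a zinc finger symbol 4 were late (22.2%, beside 17.7% of all raised genes), the fourth being Zfp42.

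Hoxc12, the only Hox gene among the late genes, had the lowest position of the 77 in WT day 11, -0.20. Its signal was at 5.47 to 5.75 in MEF, 4.97, 4.92 and 5.09 in WT days 4, 8 and 11, 5.11 in flox/- day 4 and 8.64 in flox/- day 8, with pluripotent cells at 7.73 to 8.90. All early DOX arrays and WT day 11 were below MEF, and flox/- day 8 was 11.7-fold above WT day 11. Its rise from flox/- day 4 was 3.53 ± 0.49 (log2, SE; adjusted p = 0.00792). In WT day 11, 6 late genes were not above the highest MEF array: Hoxc12, Hal, Psma8, Sult4a1, Rln3 and Zdbf2.

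Genes of cell division, repair and chromatin were 5: Brca2, Cep55, Ccnjl, Cdyl2 and Kat6b. All 5 were called higher in flox/- day 8 than in WT day 8, and 3 rose from flox/- day 4. The shares were 74.0% and 66.2% of all late genes, 70.3% and 31.7% of the other raised genes, and 12.1% and 3.56% of all tested genes. Brca2, a DNA repair protein, was at 9.22 in WT day 11 and at 9.31 and 11.10 in flox/- at days 4 and 8. The last was above all 4 pluripotent arrays (10.27 to 10.72), and the rise from flox/- day 4 was 1.79 ± 0.37 (log2, SE; adjusted p = 0.0316). It was the only late gene among 22 raised genes of the DNA replication and repair list. Kat6b, a histone acetyltransferase, rose by 2.78 ± 0.26 (log2, SE; adjusted p = 0.00184) and Cdyl2, a chromodomain protein, by 2.30 ± 0.42 (log2, SE; adjusted p = 0.0214). Cep55, which acts in the final cut of cell division, was at 9.07, 9.14 and 10.15 on the same 3 arrays, and Ccnjl, a cyclin-like protein, at 6.37, 6.50 and 7.86. Their changes from flox/- day 4 were not called (adjusted p = 0.133 and 0.103).

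Enzymes and transporters were 10: Bhmt2, Dmgdh, Hal, Pla2g1b, Hsd17b14, Slc30a2, Cox7a1, Sult4a1, Elovl2 and Apobec2. Of these, 7 rose from flox/- day 4 to day 8, beside 66.2% of all late genes and 3.56% of all tested genes. Bhmt2, which remethylates homocysteine, and Dmgdh, which demethylates dimethylglycine in mitochondria, both act in one-carbon metabolism and are neighbours in the genome, head to head on chromosome 13 with 133 bases between them (chr13:93656097-93674302 and chr13:93674436-93752823). Dmgdh had log2 signals of 5.06, 5.16 and 5.02 in WT, flox/- and -/- MEF, 4.92, 5.57 and 5.85 in WT at days 4, 8 and 11, 5.09 and 8.65 in flox/- at days 4 and 8, and 7.26, 8.94, 8.11 and 9.03 in WT iPSC, flox/- iPSC, -/- ESC and WT ESC. Bhmt2 had log2 signals of 5.77, 5.56 and 5.77 in WT, flox/- and -/- MEF, 5.77, 5.96 and 6.33 in WT at days 4, 8 and 11, 5.74 and 8.04 in flox/- at days 4 and 8, and 7.66, 9.37, 8.58 and 8.25 in WT iPSC, flox/- iPSC, -/- ESC and WT ESC. Both were below every pluripotent array in WT day 11 and inside the pluripotent range in flox/- day 8. Dmgdh rose by 3.56 ± 0.76 (log2, SE; adjusted p = 0.0348) and the change of Bhmt2, 2.30, was not called (adjusted p = 0.0811). Probe sets of Bhmt2 and its copy Bhmt may share signal. The promoter windows of the pair share 233 bases, and that of Dmgdh (chr13:93674186-93674485, plus strand) is shown for both. It holds none of the motifs searched.

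Dmgdh: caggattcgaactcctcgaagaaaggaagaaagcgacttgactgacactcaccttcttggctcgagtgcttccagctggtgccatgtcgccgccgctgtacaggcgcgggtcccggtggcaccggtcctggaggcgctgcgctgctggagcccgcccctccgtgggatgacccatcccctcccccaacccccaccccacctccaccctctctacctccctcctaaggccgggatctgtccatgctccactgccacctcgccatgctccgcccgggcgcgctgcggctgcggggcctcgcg

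Hal, the histidine-degrading enzyme, was at 5.57 in WT day 11 and 8.64 in flox/- day 8, with pluripotent cells at 7.90 to 9.60, and it rose from flox/- day 4 by 2.99 ± 0.72 (log2, SE; adjusted p = 0.0475). Pla2g1b, a secreted phospholipase, was at 8.82 and 10.45 and rose by 3.72 ± 0.32 (log2, SE; adjusted p = 0.00155), yet at 0.85 below the lowest pluripotent array it was among the genes that flox/- day 8 cells had least completed. Hsd17b14, a steroid dehydrogenase, rose by 3.38 ± 0.21 (log2, SE; adjusted p = 3.61e-04) and was then above all 4 pluripotent arrays. Slc30a2, a zinc exporter, rose by 2.51 ± 0.38 (log2, SE; adjusted p = 0.0111) and Cox7a1, a cytochrome oxidase subunit, by 2.19 ± 0.37 (log2, SE; adjusted p = 0.0161). Sult4a1, a sulfotransferase-family protein of brain, rose from flox/- day 4 by 1.67 ± 0.39 (log2, SE; adjusted p = 0.0442) and was at 7.62 there at day 8, beside 7.85 and 5.63 in WT at days 8 and 11. Elovl2, which elongates polyunsaturated fatty acids, was at 4.54 in WT day 11 and 5.68 in flox/- day 8 and Apobec2, a deaminase-family protein, at 5.76 and 6.63. Their changes from flox/- day 4 were not called (adjusted p = 0.222 and 0.33).

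Genes of signalling, adhesion and synapses were the largest group, with 20 members, of which 10 rose from flox/- day 4 to day 8. That compares with 66.2% of all late genes and 3.56% of all tested genes. Olfr153, an olfactory receptor, had the largest difference between flox/- day 8 and WT day 11, 19.3-fold. Its log2 signals were 4.25, 4.15 and 4.21 in WT, flox/- and -/- MEF, 4.06, 3.75 and 5.16 in WT at days 4, 8 and 11, 4.02 and 9.43 in flox/- at days 4 and 8, and 7.66, 8.83, 7.81 and 7.56 in WT iPSC, flox/- iPSC, -/- ESC and WT ESC. Flox/- day 8 was above all pluripotent arrays, and the other 4 DOX arrays were within about 1 log2 unit of MEF. It rose from flox/- day 4 by 5.42 ± 0.55 (log2, SE; adjusted p = 0.00255). Olfr153 lies 21.2 kb from Pramel6 on chromosome 2 (chr2:87506565-87510865 and chr2:87532035-87532958), while 15 other olfactory receptor genes around the pair differed by -0.05 to 0.32 log2 units between the same arrays and stood at 3.70 to 4.47 in flox/- day 8. Pramel7, on the other side of Pramel6 and not a raised gene, was 1.98 log2 units higher in flox/- day 8 than in WT day 11.

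Grik3, a kainate receptor subunit, was at 6.52 in WT day 11 and 9.78 in flox/- day 8, and rose from flox/- day 4 by 4.27 ± 0.56 (log2, SE; adjusted p = 0.00648). Septin1, a filament-forming GTPase, was at 8.50 and 11.06 and rose by 4.17 ± 0.48 (log2, SE; adjusted p = 0.00438). Mmrn2, an endothelial matrix protein, was at 5.54 and 8.97, but it spread from 6.61 to 9.21 among the pluripotent arrays and its change from flox/- day 4 was not called (adjusted p = 0.113). Notum, which inactivates Wnt ligands, was at 5.66, 7.37 and 5.71 in WT days 4, 8 and 11, so that it rose in WT from day 4 to day 8, by 1.71 ± 0.29 (log2, SE; adjusted p = 0.0101), and was near the MEF level in WT day 11. It rose in flox/- from 5.46 to 8.24, by 2.77 ± 0.29 (log2, SE; adjusted p = 0.00287). Sorl1, a sorting receptor, rose by 3.63 ± 0.48 (log2, SE; adjusted p = 0.00662), Syt9, a vesicle protein, by 2.10 ± 0.23 (log2, SE; adjusted p = 0.0033), and Hap1, a huntingtin-binding protein, by 2.32 ± 0.37 (log2, SE; adjusted p = 0.0131). Syt9 was already at 7.80 in flox/- day 4 against 5.29 in WT day 4, a difference of 2.51 ± 0.23 (log2, SE; adjusted p = 0.00344).

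Cobl and Itpk1 went against the common order. Cobl, an actin nucleator, had log2 signals of 6.44, 6.29 and 6.52 in WT, flox/- and -/- MEF, 8.18, 10.76 and 8.48 in WT at days 4, 8 and 11, 7.08 and 10.47 in flox/- at days 4 and 8, and 10.38, 10.61, 10.29 and 10.87 in WT iPSC, flox/- iPSC, -/- ESC and WT ESC. It rose in WT from day 4 to day 8, by 2.57 ± 0.30 (log2, SE; adjusted p = 0.0018), was lower in WT day 11, and rose in flox/- from day 4 to day 8 by 3.38 ± 0.30 (log2, SE; adjusted p = 0.00163). Itpk1, an inositol phosphate kinase, had log2 signals of 7.08, 6.74 and 6.66 in WT, flox/- and -/- MEF, 7.95, 10.44 and 9.48 in WT at days 4, 8 and 11, 10.66 and 10.43 in flox/- at days 4 and 8, and 10.60, 10.67, 10.64 and 10.69 in WT iPSC, flox/- iPSC, -/- ESC and WT ESC. It was close to the pluripotent level in flox/- at both days and in WT at day 8, and WT day 11 was lower than these. At day 4 it was higher in flox/- than in WT cells by 2.72 ± 0.23 (log2, SE; adjusted p = 0.00289). Ildr1, a protein of tricellular junctions, was similar: it was at 6.51, 10.48 and 8.30 in WT days 4, 8 and 11 and 8.82 and 9.73 in flox/- days 4 and 8. It was 4.99-fold higher in flox/- than in WT at day 4 (limma adjusted p = 0.0128) and rose 15.7-fold in WT from day 4 to day 8 (adjusted p = 2.20e-04). Fam81a, of unknown role, rose 11.6-fold over the same step (adjusted p = 0.0122), and Dab1, a Reelin adaptor, 2.16-fold (adjusted p = 0.0446). These genes moved on the array where Krt14, Krt6a and Sfn were high but Krt5 and Trp63 were not. The part of cells with such markers in their signal was not tested.

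Of the rest of the signalling group 2 more genes rose. Rln3, the relaxin peptide, rose from flox/- day 4 to day 8 by 1.47 ± 0.27 (log2, SE; adjusted p = 0.0207) and Dab1 by 1.28 ± 0.28 (log2, SE; adjusted p = 0.0354). Changes were not called for Camk2b, Ppp2r2c, Mapk4, Glp1r, Bcam, Ppp1r14d, Cabp1 and Inpp5d, nor for Mmrn2 and Itpk1. Among these Bcam, a laminin-binding adhesion molecule, differed by 2.23 ± 0.69 (log2, SE; adjusted p = 0.0962). Camk2b, a calcium-calmodulin kinase subunit, had the smallest difference between flox/- day 8 (7.49) and WT day 11 (7.38) and the largest distance left to the pluripotent arrays, 0.95. Glp1r, the incretin receptor, lies 26.1 kb from Dnah8 on chromosome 17 (chr17:30626935-30875762 and chr17:30901867-30936510), and was at 6.24 in WT day 11 and 7.80 in flox/- day 8. Inpp5d, the phosphatase SHIP1, was at 9.16 and 10.80 on these arrays, and at 9.10 in flox/- day 4 against 6.31 in WT day 8. It was called higher in flox/- than in WT at day 8, by 4.48 ± 0.83 (log2, SE; adjusted p = 0.00782).

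The set was completed by Zdbf2, an imprinted gene, and 10 genes of other or unknown role: Lrrc2, Ankrd45, 1700024J04Rik, 2410137M14Rik, Fam178b, Prr23a3, Rundc3a, Fam81a, Ildr1 and Crtac1. The first 7 rose from flox/- day 4 to day 8, by 1.88 (Rundc3a) to 4.25 (Lrrc2) log2 units, with limma adjusted p from 7.31e-04 to 0.0204. The unnamed transcripts 1700024J04Rik and 2410137M14Rik were 10.03-fold and 8.69-fold higher in flox/- day 8 than in WT day 11. Zdbf2 was at 7.38 to 8.39 in MEF, 8.27 in WT day 11 and 9.67 in flox/- day 8, with pluripotent cells at 10.35 to 10.64, and its change of 0.87 from flox/- day 4 was not called (adjusted p = 0.262). Crtac1, an extracellular matrix protein of cartilage, was at 5.81 and 6.25.

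The distance left in flox/- day 8 was under 1 log2 unit for each late gene. The 10 late genes farthest below the lowest pluripotent array there were Camk2b (0.95), Crtac1 (0.86), Pla2g1b (0.85), Elovl2 (0.85), H2ac1 (0.82), Tsx (0.72), Ppp2r2c (0.70), Zdbf2 (0.68), Pou2f3 (0.62) and Apobec2 (0.62), in log2 units. In WT day 11 the 10 farthest below were Zfp980 (2.95), Rnf17 (2.80), Triml2 (2.65), Hoxc12 (2.64), Zfp640 (2.57), Pla2g1b (2.49), Olfr153 (2.40), Hal (2.33), Grik3 (2.30) and Tex14 (2.30). Pla2g1b was on both lists.

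The late genes were also counted on lists of genes written for this work. Of 32 raised genes of the pluripotency network 6 were late (18.8%, beside 17.7% of all raised genes), and 26, with Nanog, Sox2, Esrrb, Tdgf1 and Fgf4 among them, were not. Of the 37 tested, 27 rose from flox/- day 4 to day 8 and 0 fell, and 28 were called higher than in WT day 8 and 0 lower. Over all tested genes 3.56% rose, 4.75% fell and 12.1% were higher than in WT day 8, and of the other raised genes 31.7% rose and 70.3% were higher. The lists of epithelial genes (8 raised), DNA methylation and chromatin genes (11), amino acid and one-carbon metabolism (7), LIF and STAT3 (2) and imprinted genes (2) held no late gene, but these lists do not include the late genes Bhmt2, Dmgdh, Hal and Zdbf2 described above. In the list of Nodal, FGF and BMP signals 1 of 6 raised genes was late (Nodal), and in that of 2-cell-like genes 1 of 2 (Pramel6).

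Some late genes lay close together. Of the 75 with a position in GRCm38.p6, 17 (22.7%) had another late gene within 1 Mb, in 9 pairs, against 38.7% of the 357 other raised genes with another of their own, a larger set. Beside the pairs above these were Cabp1 and Pla2g1b on chromosome 5, 272 kb apart with 9 measured genes between them that were not late, and Sorl1 and Pou2f3 on chromosome 9, 999.6 kb apart.

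The thresholds of the rule cut through a continuous range. Just inside that on WT day 11 were Inpp5d (1.01 log2 units below the lowest pluripotent array), H2ac1 (1.03) and Brca2 (1.05), and just outside were Zfp459 (0.997), Dnajc6 (0.99) and Tbx3 (0.99). Just inside the threshold on MEF were Crtac1 (1.501), Ppp1r14d (1.52) and Spats1 (1.52), and just outside were Gpr160 (1.498), Gstp3 (1.48) and Trpa1 (1.47).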

How the data were processed

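The authors deposited 1 value per probe set and array on the log2 scale, from 3.11 to 13.99, for 35512 probe sets on 12 arrays. Per the labels' protocols, RNA was extracted with TRIzol and labelled with biotin by an oligo-dT primed kit. The summary and normalization behind the deposited log2 values are not given in the sources used here. Array medians differed by 0.122, and the values were used unchanged.

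Probe sets with a single symbol in the platform annotation (21789) stood for 19938 genes, with the probe set of highest mean taken for 999 genes. Genes above the array median on at least 1 array (13044) entered a fit by limma (version 3.58.1, R 4.3.3) with 7 groups (MEF, pluripotent and each DOX array on its own), 5 residual degrees of freedom and Benjamini-Hochberg adjustment over all of them. The fit was tested on simulated data. A stated SE comes from this fit, and a stated SD is over the arrays of a group. Positions and promoters come from RefSeq tables of GRCm38.p6. Array signals have no sequencing depth, so the number of arrays limits the precision.

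The members, the gene lists and the tests were chosen with earlier results of these data known. Genes were named by rule: the largest differences between flox/- day 8 and WT day 11, the largest distances left in either, the largest changes called in each contrast, members on a list, and genes nearest the thresholds. Members outside that rule are named within role groups made after their values were seen. Alternatives were quantile normalization, another probe set choice, stricter thresholds, no filter, an intensity trend, genotype as a term, and leaving out each MEF or pluripotent array.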

Additional observations from a re-analysis of the deposited data

Results flagged for a closer look

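Among the 77 late genes, 3 had a pluripotent array that stood far from the other 3 in Dixon's test (3.9%, where chance gives about 1 in 20): Septin1, lowest in -/- ESC at 10.22 with the nearest other array at 11.11, Brca2, lowest in WT ESC at 10.27 with the nearest at 10.66, and Nodal, lowest in WT iPSC at 9.68 with the nearest at 10.19.

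The change from day 4 to day 8 differed between flox/- and WT cells by limma's interaction contrast (adjusted p under 0.05) for 34 late genes that changed more in flox/- and 2 that changed less. The largest differences were 8.03 for Zfp980, 7.33 for Zfp640, 5.72 for Olfr153, 5.53 for Triml2, 5.18 for Lrrc2, 5.01 for Triml1, 4.75 for Zfp600, 4.69 for Morc1, 4.29 for Septin1 and 4.22 for Dppa2 on the log2 scale. For Ildr1 and Itpk1 the differences were -3.06 and -2.73. Each term rests on 1 array, and the WT day 8 array came from an earlier series and carried high Krt14, Krt6a and Sfn. The part of these markers' cells in the differences was not tested.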

How the results depend on the processing

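Of 158 alternatives, 145 left a result on the same side and within its tolerance and 13 moved it, while none reversed one. A count was within tolerance if it changed by no more than 1.5-fold. The 145 include counts of late genes called lower that were 0 and stayed 0, and settings that could move a count in only one direction. A WT day 11 threshold of 1.5 gave 46 late genes and a MEF threshold of 2.5 gave 36. The latter had a median position of 1.05 in flox/- day 8, with 34 at least 2-fold above WT day 11. Stricter thresholds pick only from the 77 genes. All 46 and all 36 were therefore bound to lie within 1 log2 unit of the lowest pluripotent array in flox/- day 8. Leaving out 1 MEF or pluripotent array can only add late genes, and gave 77 to 119. Of these, 77 to 108 were within 1 and 65 to 96 at least 2-fold higher, the highest counts being without WT ESC. The median position was 0.93 to 0.98. The same settings gave 43 to 53 late genes higher from flox/- day 4 to day 8, beside 1.85% to 4.27% of all tested genes. Against WT day 8 there were 52 to 61 (9.23% to 13.6% of all tested genes), and between genotypes at day 4 there were 3 to 6 (0.644% to 1.21%). From WT day 4 to day 8 there were 6 to 8 (5.4% to 8%). The difference of changes gave 30 to 38 (2.64% to 5.06%), with 2 lower each time (5.58% to 9.25%). Quantile normalization gave 75 late genes, all within 1. The labels give no replicate numbers, so no block by replicate was fitted. Genotype as a term beside the groups, added after the data were seen, left 3 residual degrees of freedom. It gave 45 late genes higher from flox/- day 4 to day 8 (2.39% of all tested genes) and 56 against WT day 8 (10.3%). There were 2 between genotypes at day 4 (0.383%) and 6 from WT day 4 to day 8 (5.7%). For the difference of changes there were 33 (2.81%), with 3 lower (5.96%). The limits are the single array per DOX stage, a residual spread taken from arrays of the rule, and background signal in MEF for the dimmest genes.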
